A study of Mus musculus with 3 samples.

Results

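The protocadherin genes of the mouse were examined for their representation in the RNA that an antibody to YTHDF2 recovered from embryonic stem cells (ESCs). They were taken by name, as every gene of the count table in the alpha, beta or gamma protocadherin cluster or named Pcdh with a number, without antisense transcripts and pseudogenes. This gave 70 of the 49997 genes in the table, namely 14 alpha, 22 beta, 22 gamma and 12 nonclustered genes. YTHDF2 recognizes N6-methyladenosine (m6A) in RNA and hastens the decay of such transcripts, and RNA immunoprecipitation sequencing (RIP-seq) compares the RNA recovered with an antibody to such a protein with an input. The series held 1 input library and 2 YTHDF2 IP libraries of E14 ESCs, all after 24 h of doxycycline (Dox). Per the study, its ESC system carries a Dox-inducible Dux transgene and a tdTomato reporter driven by the Mervl promoter, so input and IP shared the induction of DUX, a transcription factor that moves ESCs toward a state like the 2-cell embryo. The labels give the line, E14, and name no clone. Uninduced cells and an IP with a control antibody were not analysed here.

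Protocadherins are adhesion molecules of the cadherin superfamily and are best known from neurons, where single cells use different sets of the clustered genes and thereby tell their own branches from those of other cells. Each alpha and gamma mRNA joins its own variable first exon, which encodes the extracellular domains, the membrane span and part of the cytoplasmic tail, to constant exons that all genes of its cluster share. The beta genes have a single exon and no constant part, and the nonclustered genes are separate loci.

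Total counts were 36986994 for the input, then 35259827 and 35888743 for the IP libraries, and 3 counts, taken as the floor, were 0.0811, 0.0851 and 0.0836 CPM (counts scaled by the library total). All 12 markers of ESCs were expressed, at 81.7 to 1810 CPM in the input. The summed level of 10 neural markers was 106 CPM in the input against 197 and 189 CPM in the IP libraries, with none at 0 in the input. Tubb3 and Sox1 carried this rise, and the other 8 summed to 25.4, 24.1 and 25.2 CPM. The summed level of 8 fibroblast markers was 36.0, 37.2 and 34.4 CPM, with Col3a1 and Dcn at 0 in every library, Thy1 lower in the IP (994, 498 and 543 counts) and Pdgfrb higher (251, 749 and 623 counts), and that of 6 markers of extraembryonic endoderm was 15.1, 18.3 and 12.7 CPM. The part of other cell types in the results below was not tested. Since there was 1 input, the spread in each test came from the IP libraries alone, and nothing in the labels says whether these were separate cultures.

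Reads over exons of more than 1 gene were left out of the counts, and this set what could be measured in each cluster. On GRCm38 (mm10) the alpha genes span chr18:36930285-37188897, the beta genes chr18:37264998-37521419 and the gamma genes chr18:37661775-37841873, all on the plus strand. Each gamma gene had 4 exons, of which 1, the variable exon, was its own, and 2499 to 2961 bases of each gene, a median of 55.0% of its exonic length, were shared with no other gene. Each alpha gene also had 4 exons, with a median of 45.6% unshared. Pcdha4 and Pcdha7 had 0 unshared bases, so that their counts of 0 say nothing of their RNA. Pcdha6 had 1240, or 18.8% of its exonic length, so that its count of 0 covers a small part of its RNA. The beta genes were unshared over their whole length of 2340 to 5271 bases. A gamma count is therefore a count of reads on a variable exon, and the constant exons of the gamma mRNAs do not enter the values below. The variable exons resemble each other, so 150-base windows were compared between the unshared sequences of the protocadherins. Between 93.6% and 100% of the windows in each gamma gene occurred in no other, and in 16 of the 22 genes every window was unique. The lowest share was that of Pcdhgb2. Sequence shared between genes was not compared.

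**Figure D1:**
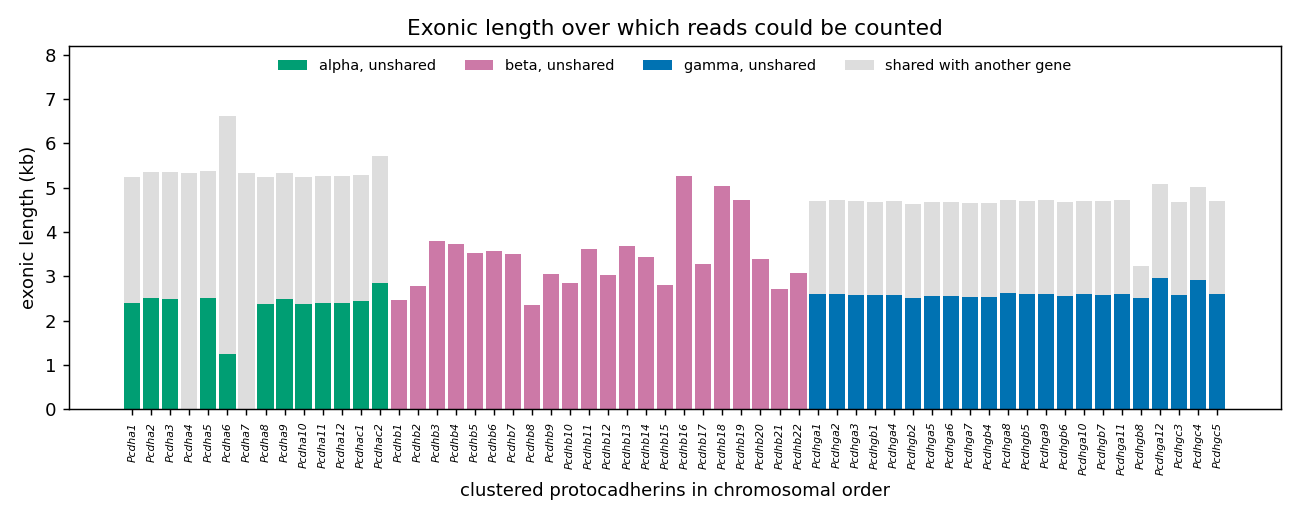
Exonic length in kb (vertical axis) of the 58 clustered protocadherins in chromosomal order (horizontal axis), with the part shared with no other gene in colour and the shared part in grey. The gamma genes have 2499 to 2961 bases each over which reads could be counted, the beta genes are wholly unshared, and Pcdha4 and Pcdha7 have no unshared base.

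The gamma cluster was the only one of the 3 clusters with more than scattered reads. All 22 gamma genes had counts, in sum 2182 for the input, 1620 for IP replicate 1 and 1687 for IP replicate 2. These were summed levels of 59.0, 45.9 and 47.0 CPM, with 95% Wilson intervals of 56.6 to 61.5, 43.8 to 48.2 and 44.8 to 49.3. The 14 alpha genes summed to 22, 0 and 6 counts and the 22 beta genes to 21, 16 and 4 counts. Of these 36 genes, 24 had no count in any library, and no beta gene exceeded 8 counts. The highest beta genes were Pcdhb2 with 8, 4 and 0 counts (input, IP replicate 1, IP replicate 2), Pcdhb14 with 0, 6 and 4, and Pcdhb18 with 0, 4 and 0. The 12 nonclustered genes summed to 408, 444 and 380 counts, or 11.0, 12.6 and 10.6 CPM. Each mate of a read pair was counted on its own, so that intervals on counts are too narrow, and they cover counting error only. In bulk RNA, fewer cells that transcribe a gene and less RNA per cell cannot be told apart.

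After the filter on low counts 25 of the 70 genes could be tested, namely 18 gamma, 6 nonclustered and 1 alpha gene. The other 45 were untested, and 25 of them had no count in any library. A gene was called enriched or depleted if it changed over 2-fold with an adjusted p-value under 0.05 in edgeR's quasi-likelihood test with Benjamini-Hochberg adjustment over all 19601 tested genes. Of the 25, 3 were enriched and 3 were depleted. One of the depleted genes, Pcdhac2, passed the filter through the input alone, where it was high, so that its direction was fixed and its call supports nothing. Over all tested genes 15.2% were enriched and 14.0% were depleted. Among the 18 tested gamma genes 3, or 16.7%, were enriched and 2, or 11.1%, were depleted, shares near those of all genes. At any fold, 3 gamma genes were higher and 5 were lower in the IP, where 28.5% of all tested genes were higher and 30.1% were lower. The median log2 fold change of the tested gamma genes was -0.56, against 0.01 over all tested genes. The ratios of single IP libraries had medians of -0.39 and -0.66. With a mean of at least 100 counts, 6 gamma genes remained, and their median was -0.20. It was -0.67 over the 17 that reached the minimum of the filter in both input and IP, which leaves out Pcdhgb6.

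**Figure D2:**
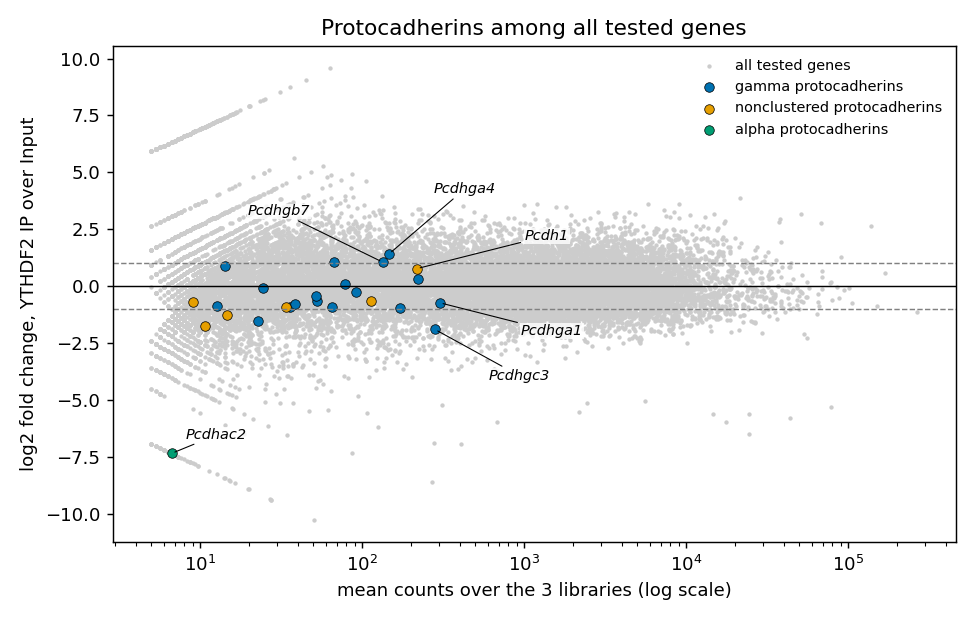
Log2 fold change of YTHDF2 IP over input (vertical axis) against the mean counts of the 3 libraries (horizontal log axis) for all 19601 tested genes in grey, with the tested gamma (blue), nonclustered (orange) and alpha (green) protocadherins. Dashed lines mark 2-fold. The gamma genes lie on both sides of 0, from -1.90 for Pcdhgc3 to 1.41 for Pcdhga4. The position of Pcdhac2, which had 0 counts in both IP libraries, depends on the prior count of the fit.

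Pcdhgc3, a C-type gamma gene known for promoting dendrite branching, was the most depleted member with reads in all libraries. It was counted 542 times in the input, 117 times in IP replicate 1 and 182 times in IP replicate 2. Both IP libraries were far below the input. The fitted change was -1.90 ± 0.21 (SE) on the log2 scale, or 3.73-fold lower in the IP, with an adjusted p of 5.85e-13 by edgeR, and it was depleted under every alternative tried that gave it a test, at adjusted p-values of 3.19e-19 to 0.00767. Pcdhgc3 had the highest level of all gamma genes in the input, at 5.71 CPM per kb of unshared exon, and ranked 7th and 4th of 22 in IP replicates 1 and 2, at 1.29 and 1.97 CPM per kb. The other C-type gamma genes were barely counted. Pcdhgc4, which is needed for the survival of neurons, had 8, 6 and 2 counts, and Pcdhgc5 had 4, 6 and 5.

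Pcdhga4 stood at the other end. It was counted 68 times in the input against 200 and 171 times in the IP libraries, so that both lay above the input. Its log2 fold change was 1.41 ± 0.34, or 2.65-fold higher in the IP, with an adjusted p of 2.21e-04 by edgeR. The call was lost with a fixed dispersion of 0.1, at an adjusted p of 0.103, in a range over all alternatives of 8.95e-05 to 0.103. Its level rose from rank 10 of the gamma genes in the input, at 0.712 CPM per kb, to ranks 3 and 5 in the IP libraries, at 2.2 and 1.85 CPM per kb.

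The A-type genes with the highest mean CPM over the libraries, Pcdhga1 and Pcdhga2, moved less. Pcdhga12, which exceeded Pcdhga2 in the input with 249 counts, is given below. Pcdhga1, the first gene of the cluster, had 403 counts in the input, and the IP libraries held 238 and 261. Its log2 fold change was -0.73 ± 0.20, 1.66-fold lower, with an adjusted p of 9.44e-04 by edgeR, which is short of a 2-fold change. Its adjusted p was 0.0747 with DESeq2 and 0.387 with a fixed dispersion of 0.1, in a range of 5.49e-04 to 0.387 over the alternatives. Its neighbour Pcdhga2 had 185, 229 and 250 counts. The log2 fold change of Pcdhga2 was 0.33 ± 0.25 and did not pass the test, with an adjusted p of 0.246 by edgeR. Since Pcdhgc3 fell below it, Pcdhga1 had the highest level per kb in both IP libraries, at 2.61 and 2.81 CPM per kb after 4.21 in the input.

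**Figure D3:**
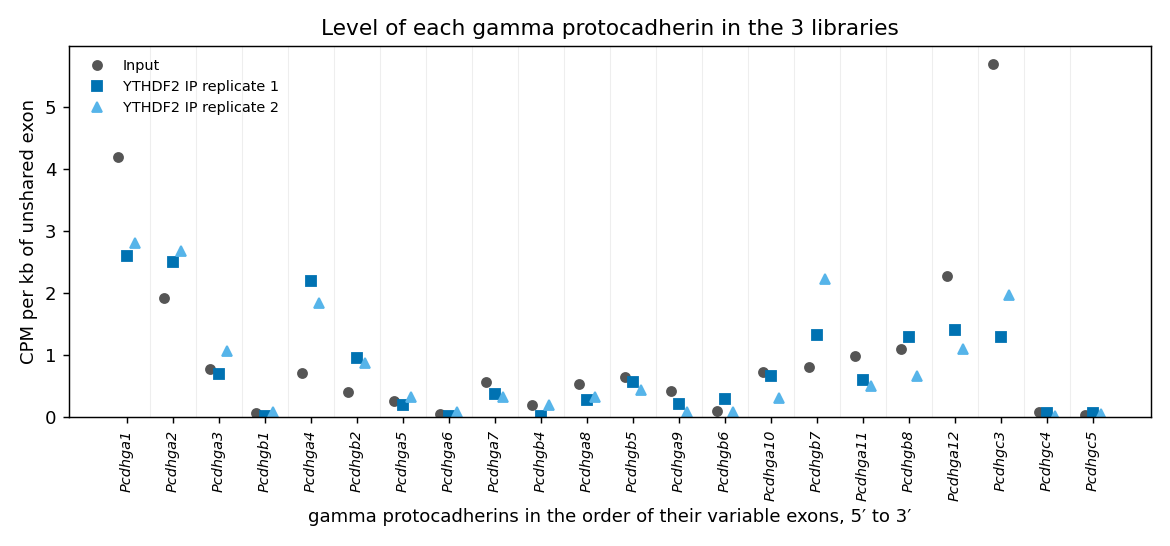
Level of the 22 gamma protocadherins in CPM per kb of unshared exon (vertical axis), in the order of their variable exons from 5′ to 3′ (horizontal axis), in the input (grey circles) and IP replicates 1 (dark blue squares) and 2 (light blue triangles). Pcdhgc3 is at 5.71 in the input and drops to 1.29 and 1.97 after the IP, while Pcdhga4 goes from 0.712 to 2.2 and 1.85.

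Several other gamma genes were called, and they are named here after their values were seen. Pcdhgb7 had 77, 121 and 206 counts, and the IP libraries exceeded the input by 0.62 and 1.36 on the log2 scale. Its log2 fold change was 1.05 ± 0.35, with an adjusted p of 0.00767 by edgeR and a range of 0.00364 to 0.239 over the alternatives. Pcdhgb2 had 38, 84 and 79 counts and a log2 fold change of 1.06 ± 0.47, with an adjusted p of 0.0461 and a range of 0.0333 to 0.253. Both genes sat just above the 2-fold threshold, at 2.06-fold and 2.08-fold, and both lost the call with DESeq2, without the filter on low counts, with a fixed dispersion and after removal of a trend with GC content across genes, an alternative chosen after seeing the data. Pcdhga9 was depleted with few reads, 40, 20 and 8 counts. The log2 ratios of Pcdhga9 differed between the IP libraries, at -1.01 and -2.30, and its adjusted p of 0.0407 by edgeR ranged from 0.0301 to 0.362 over the alternatives. With DESeq2, Pcdhga4 and Pcdhgc3 were the only gamma genes called. Pcdhga12, with 249, 147 and 116 counts, was 1.95-fold lower with an adjusted p of 9.25e-04, and Pcdhga11, with 94, 55 and 47 counts, was 1.89-fold lower with an adjusted p of 0.045, both by edgeR and both short of 2-fold. Neither passed with DESeq2, at adjusted p-values of 0.0822 and 0.345, and they ranged over the alternatives from 2.67e-04 to 0.236 for Pcdhga12 and from 0.0241 to 0.345 for Pcdhga11.

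The other 10 tested gamma genes, Pcdhga2 among them, did not pass the test at any fold. In all, 4 tested gamma genes were above the input in both IP libraries and 10 were below it in both. Another 4 were split, above it in 1 IP library and below it in the other. Of all 19601 tested genes, 8666 were above the input in both, 8872 were below it in both and 2063 were split. Among the split gamma genes was Pcdhgb6, with 9 counts in the input against 26 and 8 in the IP libraries. The IP libraries also differed for Pcdhgb4, which had 18, 2 and 18 counts. Pcdhgb6 reached the minimum of the filter on low counts in IP replicate 1 alone. The 4 untested gamma genes had at most 8 counts in any library.

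**Figure D4:**
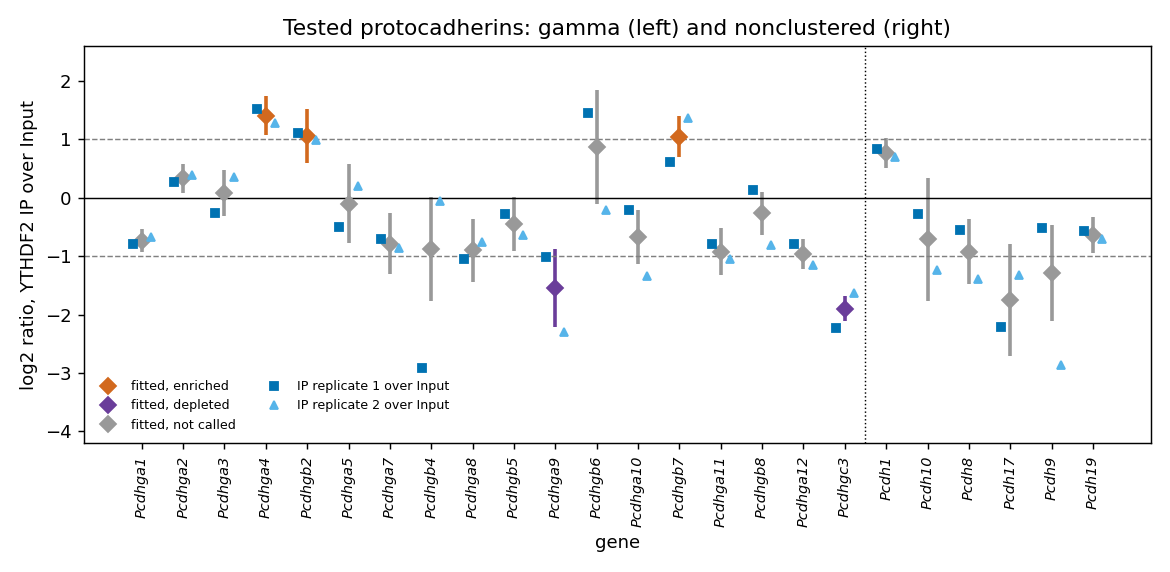
Log2 ratio of YTHDF2 IP over input (vertical axis) for 24 tested protocadherins (horizontal axis), with each IP library as a small blue symbol and the fitted value ± SE as a diamond, orange where enriched, purple where depleted and grey where not called. Dashed lines mark 2-fold. Both IP libraries lie above the input for Pcdhga4 and far below it for Pcdhgc3, and they lie apart for Pcdhgb4, Pcdhgb6 and Pcdh9. Pcdhac2, with 0 counts in the IP, is not drawn.

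The makeup of the gamma reads thus differed between input and IP. Pcdhgc3 gave 24.8% of all gamma counts in the input (95% Wilson interval 23.1 to 26.7), 7.22% (6.06 to 8.59) in IP replicate 1 and 10.8% (9.40 to 12.4) in IP replicate 2. Pcdhga4 gave 3.12%, 12.3% and 10.1%. The 7 genes of the B type together gave 14.3% (12.9 to 15.8) in the input against 24.8% (22.7 to 26.9) and 24.9% (22.9 to 27.0) in the IP libraries. Most of this rise lay in Pcdhgb7 and Pcdhgb2, and the other 5 genes of the B type gave 9.03%, 12.1% and 8.0%. The 12 genes of the A type gave 60.3%, 67.3% and 63.9%, although their summed level was 35.6 CPM in the input and 30.9 and 30.0 CPM after the IP. The 3 most counted gamma genes of each library held 54.7%, 41.2% and 42.5% of the gamma counts. Much of the lower summed gamma level in the IP lay in Pcdhgc3 alone. Without it the other 21 genes had 1640, 1503 and 1505 counts, or 44.3, 42.6 and 41.9 CPM, with overlapping intervals of 42.2 to 46.5, 40.5 to 44.8 and 39.9 to 44.1. No test of the shares was made, since shares of one total move together.

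**Figure D5:**
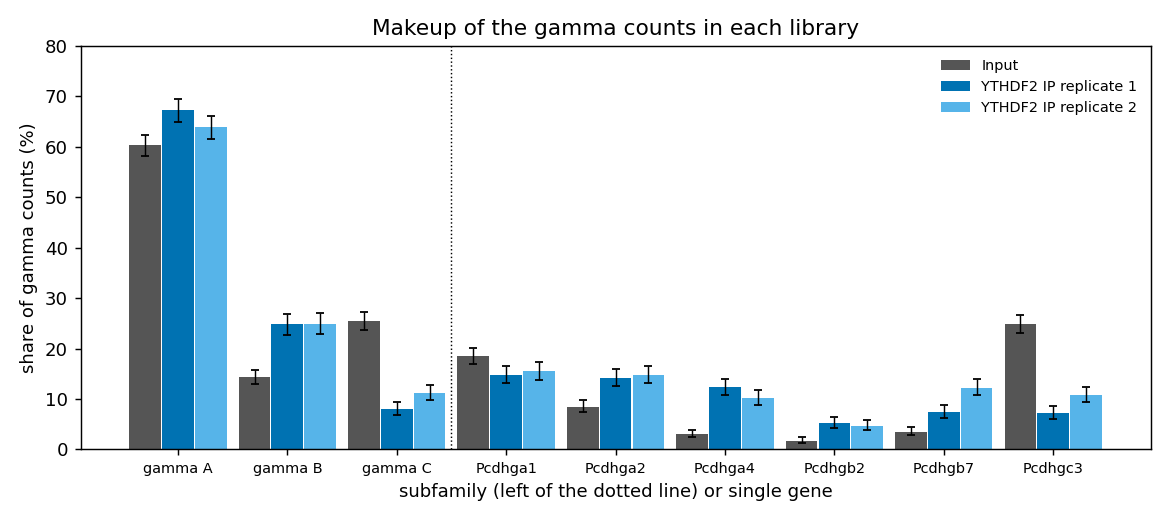
Share of all gamma protocadherin counts in percent (vertical axis) held by each subfamily (left of the dotted line) and by 6 single genes (right), in the input (grey) and IP replicates 1 (dark blue) and 2 (light blue), with 95% Wilson intervals as error bars. The C type holds 25.4% in the input but 7.96% and 11.2% after the IP, nearly all of it Pcdhgc3, and the B type goes from 14.3% to 24.8% and 24.9%, a rise that lies mostly in Pcdhgb7 and Pcdhgb2.

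GGAC, a core of the sites at which m6A is placed, was counted in the unshared exons on the transcribed strand. The 22 gamma genes held 2.70 to 8.14 GGAC per kb, with a median of 5.87, the alpha genes a median of 6.23, the beta genes 4.70 and the nonclustered genes 3.77. Over all tested protein-coding genes the median was 4.04 per kb. Across the 18 tested gamma genes the motif density and the log2 fold change had a Pearson's r of 0.06 and a Spearman's rho of -0.16. The GC content of the same exons and the log2 fold change had an r of -0.12 and a rho of 0.06, but over the 6 with a mean of at least 100 counts they had an r of -0.51 and a rho of -0.66. Over the same 6 the motif density had an r of 0.14 and a rho of -0.03. The start of the gene along the cluster and the log2 fold change had an r of -0.46 and a rho of -0.48 over the 18, and of -0.52 and -0.49 over the 6. The mean count had an r of -0.09 and a rho of 0.09 over the 18, and of -0.73 and -0.66 over the 6. These genes share 3 libraries and a locus and many have few reads, so the coefficients are given as a description.

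Of the alpha genes, Pcdhac2, a C-type gene that serotonergic neurons need for the spacing of their axons, was the only one tested. It had 20 counts in the input, with an exact Poisson interval of 12.2 to 30.9, and 0 in both IP libraries. Against the floor of 3 counts per library the input level was 6.41-fold higher with the 20 counts taken as exact, and 3.91-fold higher from the low end of their interval. Mates were counted singly, so that this interval is too narrow. Pcdhac2 passed the filter through its input count alone, which fixed its direction. These folds therefore describe its counts and support no depletion, and no p-value is given for it. Pcdhac1 had no count in any library. Of the variable alpha genes, Pcdha5 had 2, 0 and 2 counts and Pcdha2 had 0, 0 and 4.

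Among the nonclustered genes Pcdh1, which is expressed in epithelia and serves as an entry receptor for some hantaviruses, was higher in the IP. The input held 145 counts and the IP libraries 263 and 244, so that both lay above the input by log2 ratios of 0.83 and 0.70. Its log2 fold change was 0.77 ± 0.26, or 1.70-fold, with an adjusted p of 0.00829 by edgeR and a range of 0.00476 to 0.541 over the alternatives. It was not called enriched at the 2-fold threshold. Its adjusted p was 0.108 with DESeq2 and 0.399 with a fixed dispersion. Its unshared exons had a GC content of 59.5%, and with the trend with GC content removed its log2 fold change was 0.20, with an adjusted p of 0.541. Of the other 5 tested nonclustered genes none passed the test. Pcdh17 was in the tested set through its input count alone, which fixed its direction, and the remaining 4 were below the input in both IP libraries. Of all 19601 tested genes, 8872 were below the input in both. The median log2 fold change of the 6 was -0.82, and with 1 IP library left out it was -1.28 without replicate 1 and -0.53 without replicate 2. It was -0.71 without Pcdh17 and 0.06 over Pcdh1 and Pcdh19, the pair with a mean of at least 100 counts.

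Pcdh19, the gene mutated in an X-linked epilepsy, was counted 146 times in the input and 100 and 93 times after the IP. Its log2 fold change was -0.64 ± 0.32, with an adjusted p of 0.0769 by edgeR. Pcdh8, which is known from the paraxial mesoderm of the embryo and from the internalization of N-cadherin at synapses, had 49, 34 and 19 counts and a log2 fold change of -0.92 ± 0.55, with an adjusted p of 0.148. The sequences below show how dense GGAC (in capitals) can be in the coding exons of these genes, the nonclustered members other than Pcdh1 with a mean of at least 30 counts. Each is the 60-base coding window with the most GGAC, on the minus strand of GRCm38 (RefSeq), at chrX:133687103-133687162 for Pcdh19 and chr14:79770510-79770569 for Pcdh8.
Pcdh19: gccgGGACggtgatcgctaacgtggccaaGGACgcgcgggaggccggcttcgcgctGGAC
Pcdh8: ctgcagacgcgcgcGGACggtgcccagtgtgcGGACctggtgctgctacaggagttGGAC
Each window holds GGAC 3 times. Of the 60-base coding windows, 22.8% in Pcdh19 and 31% in Pcdh8 held at least 1 GGAC, where 19.6% of 1200339 windows over the exons of all protein-coding genes with reads did. The latter include untranslated parts and do not overlap each other, so the shares are not of like windows. Over all its unshared exons Pcdh19 held 3.01 GGAC per kb, below the median of 4.04 for all tested protein-coding genes, and Pcdh8 held 5.89. Windows with 3 or more made up 0.162% in Pcdh19, 0.59% in Pcdh8 and 0.198% over all genes. The match is one of letters and was not compared with any map of m6A.

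The last tested nonclustered genes had few reads. Pcdh9 had 24, 17 and 3 counts, Pcdh17 had 20, 4 and 8, and Pcdh10, which recruits a regulator of actin to cell contacts, had 12, 10 and 5. Their log2 fold changes were -1.29 ± 0.82, -1.76 ± 0.96 and -0.71 ± 1.05, and neither Pcdh9 nor Pcdh10 passed the test, with adjusted p-values of 0.174 and 0.585 by edgeR. Of the 6 untested genes, Pcdh12 and Pcdh11x reached 8 counts in IP replicate 1, Pcdh7 had 6 counts in the input and none in the IP, Pcdh18 and Pcdh20 reached 4 counts in a library, and Pcdh15 had none.

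The members were set beside genes of like structure and place. Of 510 tested protein-coding genes with a single exon, 34.3% were enriched and 6.08% depleted, with a median log2 fold change of 0.74. Of 6506 tested protein-coding genes with several exons of which 1 holds over 50% of the exonic length, as the variable exon of a gamma gene does, 20.2% were enriched and 12.1% depleted, with a median of 0.20. The gamma genes, at 16.7% and 11.1% with a median of -0.56, had a lower median than both lists. Of the 28 protein-coding genes within 500 kb of the clusters that are not protocadherins, all tested, 5 were enriched and 4 depleted, with a median of 0.42. These are 17.9% and 14.3%, near the 15.2% and 14.0% of all tested genes. Among those with a mean of at least 100 counts they ran from Wdr55, a WD repeat protein with 2057, 6711 and 6811 counts and a log2 fold change of 1.68 ± 0.08, to Gnpda1, an enzyme of amino sugar metabolism with 4436, 1817 and 1779 counts and -1.34 ± 0.08. The highest change of all 28 was that of Slc25a2, a mitochondrial carrier with few reads, named after its values were seen, at 12, 62 and 52 counts and 2.2 ± 0.68. Neighbours of the clusters thus lay on both sides of 0, as all tested genes did.

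All 18 regulators of clustered protocadherin expression, among them CTCF, cohesin and DNA methyltransferases, were tested. None was enriched and 6 were depleted, where 15.2% and 14.0% of all tested genes were. At any fold 2 were higher and 13 were lower, where 28.5% and 30.1% of all tested genes were, and the median log2 fold change was -0.80. Ctcf, whose protein anchors the chromatin loops that choose a protocadherin promoter, had 7585, 2158 and 2353 counts and a log2 fold change of -1.79 ± 0.07, with an adjusted p of 1.4e-36 by edgeR. At the other end Nipbl, which loads cohesin, had 2627, 4931 and 4669 counts, a change of 0.83 ± 0.08 and an adjusted p of 5.12e-16. Of the 17 cytoplasmic partners of protocadherins, kinases and actin regulators for the most part, none was enriched and 5 were depleted, with 3 higher and 10 lower at any fold and a median of -0.67, to be set against the same shares of all tested genes. Abi2, a subunit of the WAVE complex that drives actin branching, had 384, 81 and 87 counts and a log2 fold change of -2.23 ± 0.25, with an adjusted p of 1.58e-12. Axin1, a scaffold of Wnt signalling to which the Pcdhgc3 protein binds, had 2586, 4196 and 4540 counts and was 1.64-fold higher, with an adjusted p of 3.62e-13 by edgeR.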

How the data were processed

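The authors trimmed reads with fastp 0.19.4 per the labels, aligned them to mm10 with HISAT2 2.2.1 and deposited raw counts per gene. The file headers name featureCounts 2.0.3 and RefSeq exons. Mates were counted singly, without strand, and reads over exons of several genes were left out; even numbers made up 61.4 to 64.7% of counts from 1 to 100. The labels name total RNA as the material of the IP, the methods a cell lysate. The table held 0 columns of other samples.

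All 70 genes matched RefSeq on GRCm38.p6 in start and end. Counts were filtered (filterByExpr, minimum count 10), scaled by TMM (factors 0.957, 1.02 and 1.02) and tested with the quasi-likelihood F test of edgeR 4.0.16 in R 4.3.3, with robust dispersions (common dispersion 0.00538), 1 residual degree of freedom and Benjamini-Hochberg adjustment. The fit uses a prior count of 0.125, and ratios of single libraries use 0.5 added to each count. The SE was derived from the fold change and the F statistic. DESeq2 1.42.0 was an alternative. The script was tested on simulated data.

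The members and lists were chosen with earlier results of these data known. Named were all tested nonclustered and all C-type genes, the 3 members with the highest mean CPM of each cluster, and the highest and lowest change with a mean of at least 100 counts in each cluster and other list. Exceptions are stated.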

Additional observations from a re-analysis of the deposited data

How the results depend on the processing

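The calls rest on 1 input and few reads per gene. Over all tested genes, 2973 were enriched and 2743 depleted. With a mean of at least 100 counts 1799 were depleted, and with a fixed dispersion of 0.1 there were 1577 and 1531. Of the gamma genes, 3 were enriched and 2 depleted. With DESeq2 and without a filter on low counts there were 1 enriched and 1 depleted, with a fixed dispersion 0 and 1, and with the removal of a GC trend 1 and 4. With library totals in place of TMM, a mean of at least 100 counts, or the older form of the quasi-likelihood test, 1 was depleted. The older test and the GC trend were chosen after seeing the data. The median log2 fold change of the gamma genes, -0.56, was -0.36 with DESeq2, -0.35 without a filter, -0.18 in a fit restricted to means of 100 counts or more and -0.20 over members with such a mean. The nonclustered median, -0.82, was 0.0822 and 0.0645 in the last of these. With the GC trend removed, 1 nonclustered gene was depleted, Pcdh8 at -1.41 and an adjusted p of 0.0321, in a range of 0.0321 to 0.536. The cause of these shifts was not tested. With 1 IP library left out no test could be made. The number of tested gamma genes over 2-fold lower, 2 with both, was then 4 to 5, and that of nonclustered genes, 2 with both, was 1 to 4. The nonclustered genes include Pcdh17, which passed the filter through its input count alone. No share of all tested genes stands beside these counts, so they are no result about the members. The gamma level, 1.03, 0.802 and 0.821 CPM per kb of unshared exon in the input and IP replicates 1 and 2, was 0.576, 0.448 and 0.459 per kb of whole exonic length. The other 87 values differed less, counts by at most 1.5 times, medians by less than the SD between the IP libraries, and shares and levels within their Wilson intervals. No paired analysis was possible because no IP library has an input of its own number.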

Other observations

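The wider cadherin family was also measured. Of 20 classical cadherins 14 were tested, of which 2 were enriched and 2 depleted, with a median log2 fold change of 0.50. These are 14.3% each, near the 15.2% enriched and 14.0% depleted of all tested genes. Of the 14, Cdh13, Cdh15, Cdh18 and Cdh26 passed the filter on low counts through the IP alone and Cdh5 through the input alone, which fixed their direction. Over the other 9, none was enriched, 2 were depleted and the median was -0.11. Cdh1 (E-cadherin), the main adhesion molecule of ESCs, had 17325 counts in the input against 9499 and 9763 after the IP, a log2 fold change of -0.89 ± 0.05 with an adjusted p of 4.14e-25 by edgeR. Cdh24 had 222, 333 and 433 counts and a change of 0.75 ± 0.21, with an adjusted p of 0.00188. Of 20 large and atypical cadherins 13 were tested, 1 (7.69%) was enriched and none was depleted, with a median of 0.17. The same shares of all tested genes, 15.2% and 14.0%, apply. Dchs1, the enriched gene, Cdh23 and Cdhr4 also passed the filter through the IP alone. Over the other 10 none was called and the median was 0.13. Celsr1, a receptor of planar cell polarity, had 1692, 3150 and 3310 counts and a change of 0.89 ± 0.09, while Cdhr1, a cadherin of photoreceptors, had 390, 170 and 231 counts and a change of -1.0 ± 0.21. Of 9 catenins 7 were tested and 1, or 14.3%, was enriched, near the 15.2% of all tested genes. It was Pkp4, with 6339, 14029 and 14448 counts and a change of 1.13 ± 0.06. Ctnna1 (alpha-E-catenin), which links cadherins to actin, had 20423, 12884 and 12708 counts and a change of -0.71 ± 0.05.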
